A study of Homo sapiens with 6 samples.

Results

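The APOBEC3 genes encode cytidine deaminases that turn cytosine into uracil in single-stranded DNA. All 7 of them, APOBEC3A, APOBEC3B, APOBEC3C, APOBEC3D, APOBEC3F, APOBEC3G and APOBEC3H, were taken by symbol from tables of 27968 genes, and every symbol was found. They were measured in RNA from 2 established human lung cancer cell lines, H23 and A549, both derived from lung adenocarcinomas. There were 3 independent, untreated cultures per line. The H23 medium is written RPM1640 in the labels and the A549 medium is DMEM, each with fetal bovine serum added, so line and medium changed together. Total RNA was taken near confluence and sequenced after removal of ribosomal RNA with a stranded kit. A line is a single population kept in culture, so the replicates measure the spread between cultures and not between patients.

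The APOBEC3 genes lie side by side on chromosome 22 and arose by duplication, so their sequences are close. Their proteins restrict retroviruses and retrotransposons by deaminating the first DNA strand made in reverse transcription, and APOBEC3G, APOBEC3F, APOBEC3D and APOBEC3H can be packaged into virus particles. HIV answers with Vif, which recruits a cellular ubiquitin ligase to destroy them. APOBEC3B, which resides in the nucleus, and APOBEC3A also deaminate the cell's own genome and are known for a class of mutations found in many tumours, lung adenocarcinoma among them. APOBEC3A, APOBEC3C and APOBEC3H are single-domain enzymes and the others carry tandem domains.

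Close sequence decides how well reads can be given to a member, and the coding sequences of the members' leading transcripts were compared first, in GENCODE release 29 on GRCh38, with positions counted from the first base of the start codon. Those of APOBEC3A and APOBEC3C were 600 and 573 bases long, with APOBEC3H slightly shorter, and those of APOBEC3B, APOBEC3D, APOBEC3F and APOBEC3G were 1149, 1161, 1122 and 1155 bases long. All windows of 50 bases in APOBEC3H were found in no other member's transcripts, against 93.9% of windows in APOBEC3C, 88.25% in APOBEC3G, 72.75% in APOBEC3D, 64.77% in APOBEC3F, 64.55% in APOBEC3B and 63.7% in APOBEC3A. Only coding sequences supplied these windows, and the untranslated parts of the transcripts, to which reads are also assigned, were not examined. Every APOBEC3D window also occurred in AL022318.4, a GENCODE gene that is not one of the members. APOBEC3A and the second part of APOBEC3B were 94.6% identical over 574 aligned bases. The longest stretch they share without a difference ran over 196 bases, positions 173 to 368 of APOBEC3A and 722 to 917 of APOBEC3B, and a read lying inside it cannot be told apart. It is shown because APOBEC3A was assigned no reads while APOBEC3B was abundant.
APOBEC3A and APOBEC3B, shared: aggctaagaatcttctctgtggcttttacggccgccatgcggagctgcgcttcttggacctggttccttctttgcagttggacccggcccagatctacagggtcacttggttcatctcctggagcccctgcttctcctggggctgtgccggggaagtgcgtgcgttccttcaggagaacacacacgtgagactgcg

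The stretch of 60 aligned bases where the same pair differs most held 10 differences, at positions 73 to 132 of APOBEC3A and 622 to 681 of APOBEC3B. A read that covers such differences can be placed. Capitals mark the bases that differ.
APOBEC3A: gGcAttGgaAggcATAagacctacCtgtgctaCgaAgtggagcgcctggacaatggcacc
APOBEC3B: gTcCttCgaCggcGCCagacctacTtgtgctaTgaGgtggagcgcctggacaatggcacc

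APOBEC3D and APOBEC3F were 90.28% identical over 1121 aligned bases, and their longest shared stretch ran over 222 bases, positions 737 to 958 of APOBEC3D and 698 to 919 of APOBEC3F. It is shown because APOBEC3D was near the detection limit in A549 while APOBEC3F was not.
APOBEC3D and APOBEC3F, shared: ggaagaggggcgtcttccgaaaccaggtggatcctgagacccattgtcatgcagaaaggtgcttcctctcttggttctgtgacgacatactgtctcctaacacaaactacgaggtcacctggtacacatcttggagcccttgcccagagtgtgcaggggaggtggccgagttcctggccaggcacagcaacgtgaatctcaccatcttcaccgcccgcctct

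APOBEC3F and APOBEC3G began with the same 142 bases. They are shown because the short transcript of APOBEC3F, described below with its values, shares this start, and APOBEC3G was all but missing from A549.
APOBEC3F and APOBEC3G, shared: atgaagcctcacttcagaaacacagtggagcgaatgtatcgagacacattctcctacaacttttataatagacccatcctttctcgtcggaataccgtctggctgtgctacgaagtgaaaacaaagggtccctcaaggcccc

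The deposited values are RSEM's expected counts, estimates in which a read that fits several transcripts is divided among them, so a fraction in a gene's count shows that reads were divided. APOBEC3C had a whole expected count, within 0.005, in 6 of 6 libraries, as did 79.5% of the genes with at least 1 count in every library. APOBEC3B, APOBEC3D and APOBEC3F had a fraction in all 6 libraries, so part of their reads was shared with other genes. APOBEC3G had a fraction in every H23 library, at 198.73, 286.2 and 390.51, so part of its reads was shared too. Its whole counts were the 1, 0 and 0 of the A549 libraries.

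CPM, used below, is the count scaled to a library total of 1000000, with TMM factors. The libraries held 29395795 to 42421642 estimated counts in H23 and 23399562 to 25348083 in A549. A count of 3 in 1 library, taken as the floor, was worth 0.0707 to 0.102 CPM in H23 and 0.118 to 0.128 in A549, for counting error only. H23 replicate 1 stood apart from the other H23 libraries, and 32.2% of tested genes differed by more than 0.5 on the log2 scale between it and their mean, against 6.96% between H23 replicates 2 and 3. A549 libraries carried 15.7% to 19.7% of their TPM, RSEM's abundance scaled for length and depth, in genes under 200 bases, against 0.112% to 0.242% in H23, which lowers the TPM of every other gene in A549. Of 6 epithelial markers, the keratins KRT7, KRT8 and KRT19 were called higher in A549, the adhesion genes CDH1 and EPCAM were called higher in H23, and KRT18 was not called. KRT8 had 1493 ± 30.7 CPM in H23 against 2186 ± 62.2 in A549 (SD, n = 3 each), a call lost on log2(TPM + 1) with limma, and KRT7 had 1.18 ± 0.112 CPM in H23 against 3562 ± 48.4 in A549. The log2 fold of CDH1 was -1.43 ± 0.17. Of 16 leukocyte markers, 4 had no count in any library, the T cell genes CD3D, CD3E and CD2 and the B cell gene MS4A1. The common leukocyte antigen PTPRC had no count in H23 and 0.0139 ± 0.0240 CPM in A549. The summed TPM of the 16 markers was 11.7 to 19.2 in H23 and 7.34 to 8.45 in A549. Only CD8A among the 4 tested passed, with 6.97 ± 0.557 CPM in H23 against 0.292 ± 0.0876 in A549 (log2 fold -4.57 ± 0.22, edgeR adjusted p = 3.67e-06). CD8A entered the test through its H23 libraries, with summed counts of 775 in H23 and 21 in A549, so its call is a description. The other 3 tested markers, CD68, CD14 and ITGAM, were present in both lines and were not called. Their levels were 7.31 ± 2.26, 3.25 ± 1.12 and 4.26 ± 0.471 CPM in H23. In A549 they were 5.81 ± 0.619, 3.77 ± 0.174 and 4.22 ± 0.658 CPM.

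APOBEC3 expression was higher in H23 than in A549, and the member that led the family changed with the line. APOBEC3B, APOBEC3C, APOBEC3D, APOBEC3F and APOBEC3G were higher in H23, APOBEC3A was not detected in either line, and APOBEC3H was near the floor in both. A negative log2 fold means a higher level in H23. Each is printed with its approximate standard error and the adjusted p of edgeR (quasi-likelihood, Benjamini-Hochberg over all tested genes), and a gene is called at a threshold of 0.05. Of the 7 members, 5 had enough counts to be tested and all 5 were called higher in H23, beside 39.6% of all 15426 tested genes called higher in H23, 37.6% called higher in A549 and 77.2% called in either direction. APOBEC3D and APOBEC3G passed the filter on low counts only through their H23 libraries, so they had to differ, and the count of 5 is a description. In no tested member did the libraries of the lines overlap, while 82.1% of all tested genes had no overlap and 41.4% had every H23 library above every A549 library. These counts describe cultured lines, in which fewer expressing cells and less RNA per cell cannot be told apart.

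**Figure D1:**
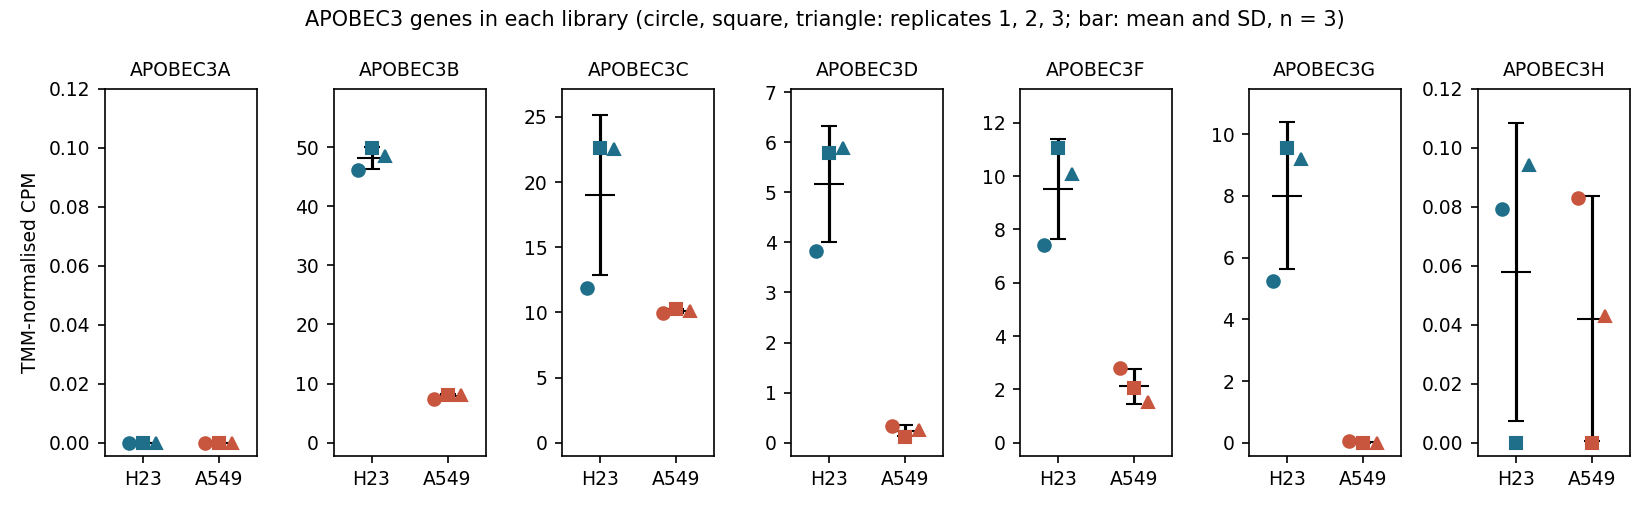
TMM-normalised CPM (vertical axis, own linear scale in each panel) of the 7 APOBEC3 genes in the 3 H23 and 3 A549 libraries, with circles, squares and triangles for replicates 1, 2 and 3 and black bars for the mean and SD. APOBEC3B sits between 46.1 and 49.9 CPM in H23 and between 7.40 and 8.11 in A549. H23 replicate 1 is the lowest H23 library for APOBEC3B, by a small margin, and for APOBEC3C, APOBEC3D, APOBEC3F and APOBEC3G.

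APOBEC3B, the nuclear tandem-domain enzyme, was the most abundant member in H23. Its level was 46.1, 49.9 and 48.5 CPM in H23 replicates 1, 2 and 3 and 7.40, 8.07 and 8.11 CPM in A549 replicates 1, 2 and 3. The 3 H23 libraries lay close together, also replicate 1, and far above all A549 libraries. The log2 fold was -2.61 ± 0.09 (n = 3 each, edgeR adjusted p = 1e-06). Its expected counts were 1746, 1492 and 2059 in H23 and 178, 202 and 188 in A549. Of its 2 listed transcripts, NM_004900 held 100% of the gene in every library and NM_001270411 held no count.

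APOBEC3A, a single-domain enzyme usually found in myeloid cells and keratinocytes, had 0 expected counts in all 6 libraries, as RSEM assigned the reads. With 109113426 counts over the H23 libraries and 73189477 over the A549 libraries, a count of 0 allows a level of up to 0.0275 CPM in H23 and 0.0410 CPM in A549. APOBEC3A_B, the table's entry for a fused form of APOBEC3A and APOBEC3B, had 1.38 expected counts in H23 replicate 1 and none in the other 5 libraries. The antisense gene APOBEC3B-AS1 had 3.14, 3.19 and 3.09 expected counts in the H23 libraries and none in A549. Its H23 level was 2.11 times a floor of 3 counts over the A549 libraries, with the counting error of the H23 counts left out. The use of strand in counting was not given in the sources used here, so reads of that gene and of APOBEC3B cannot be told apart where they overlap.

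APOBEC3C, a single-domain enzyme expressed in many tissues, differed least among the tested members and was the most abundant member in A549. It stood at 11.9, 22.6 and 22.5 CPM in H23 replicates 1, 2 and 3 and at 9.97, 10.2 and 10.1 CPM in A549. H23 replicate 1 lay just above the A549 libraries, and the other H23 libraries were far above both. The log2 fold was -0.91 ± 0.25 (edgeR adjusted p = 0.0123), and without H23 replicate 1 it was -1.16 ± 0.08. After each library was corrected for GC content and length, the log2 fold was -0.46 ± 0.25 and the call was lost (edgeR adjusted p = 0.12). Over all its alternatives the adjusted p of APOBEC3C in edgeR, DESeq2 or limma lay between 6.74e-13 and 0.12.

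APOBEC3D and APOBEC3F are tandem-domain enzymes of the cytoplasm that act on retroviruses. APOBEC3D stood at 3.83, 5.78 and 5.88 CPM in H23 and at 0.332, 0.120 and 0.259 CPM in A549. The A549 values rest on 7.79, 3.24 and 6.29 expected counts, just above the floor, and no library of a line reached the other line. The log2 fold was -4.43 ± 0.35 (edgeR adjusted p = 3.07e-05), and the summed counts of 567 in H23 and 17 in A549 gave a ratio of 22.4 with a 95% counting interval of 13.8 to 38.7. APOBEC3F stood at 7.42, 11.1 and 10.1 CPM in H23 and at 2.78, 2.04 and 1.51 CPM in A549 (log2 fold -2.17 ± 0.26, edgeR adjusted p = 0.000227). Both genes were lowest in H23 replicate 1 among the H23 libraries, and both still exceeded every A549 library there.

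APOBEC3G, the tandem-domain enzyme best known as the factor that Vif counteracts, showed the sharpest contrast. It stood at 5.26, 9.56 and 9.20 CPM in H23, from 199, 286 and 391 expected counts. The A549 libraries held 1, 0 and 0 counts. H23 thus carried 587 times the A549 level, with a 95% counting interval of 105 to 23210 from summed counts of 875 and 1 (exact binomial interval, edgeR adjusted p = 1.49e-05). Without A549 replicate 1 no A549 count remained. NM_021822 held 92.2%, 92.2% and 95.8% of the gene in the H23 libraries, and other listed transcripts held the rest.

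APOBEC3H, the most divergent single-domain member, had 3, 0 and 4 expected counts in H23 and 2, 0 and 1 in A549 and did not pass the filter. Its H23 level was 1.57 times the A549 level by summed counts, with a 95% counting interval of 0.357 to 9.38, so no difference was detectable at this depth. Without the filter, the edgeR adjusted p was 0.704.

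On log2(TPM + 1), a scale that understates the change of low genes, limma gave log2 folds of -1.99 for APOBEC3D, -1.05 for APOBEC3F and -3.03 for APOBEC3G. All had the same direction and call, where 54% of tested genes were called higher in H23 and 79.1% in either direction. On log2(TPM + 0.1) the 3 folds were -4.06, -1.41 and -6.06, against -4.43, -2.17 and -8.80 in edgeR. The smaller added value thus moved APOBEC3F least of the 3, and the cause of its smaller fold on TPM was not tested. The median log2 fold of all tested genes was -0.41 on log2(TPM + 1) and -0.16 with upper quartile factors. The split on log2(TPM + 1) was 3868 genes higher in A549 and 8334 in H23, against 5801 and 6109 in edgeR. Every tested member kept a fold below that shift. The 5 members were also called higher in H23 by DESeq2 (39.3% of all genes so called, 77.6% in either direction), by edgeR without the filter (31.3% and 61.6%), with a replicate block (38.2% and 75.8%) and without H23 replicate 1 (44.6% and 88.6%). With the correction for GC content and length, 4 of the 5 were called, beside 41.1% and 80.7% of all genes. H23 replicate 1 lay 0.92 below the mean of H23 replicates 2 and 3 on the log2 scale for APOBEC3C, 0.82 below for APOBEC3G, 0.59 below for APOBEC3D and 0.50 below for APOBEC3F, and 0.09 below for APOBEC3B. Without that library the log2 folds were -2.64 for APOBEC3B, -1.16 for APOBEC3C, -4.61 for APOBEC3D and -2.31 for APOBEC3F, and APOBEC3G was still called (edgeR adjusted p = 5.83e-18). The calls of APOBEC3D and APOBEC3G are a description in every fit, since both had to differ. Only 2.56% of tested genes lay as low as APOBEC3C in that library, and 42.9% as low as APOBEC3B.

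**Figure D2:**
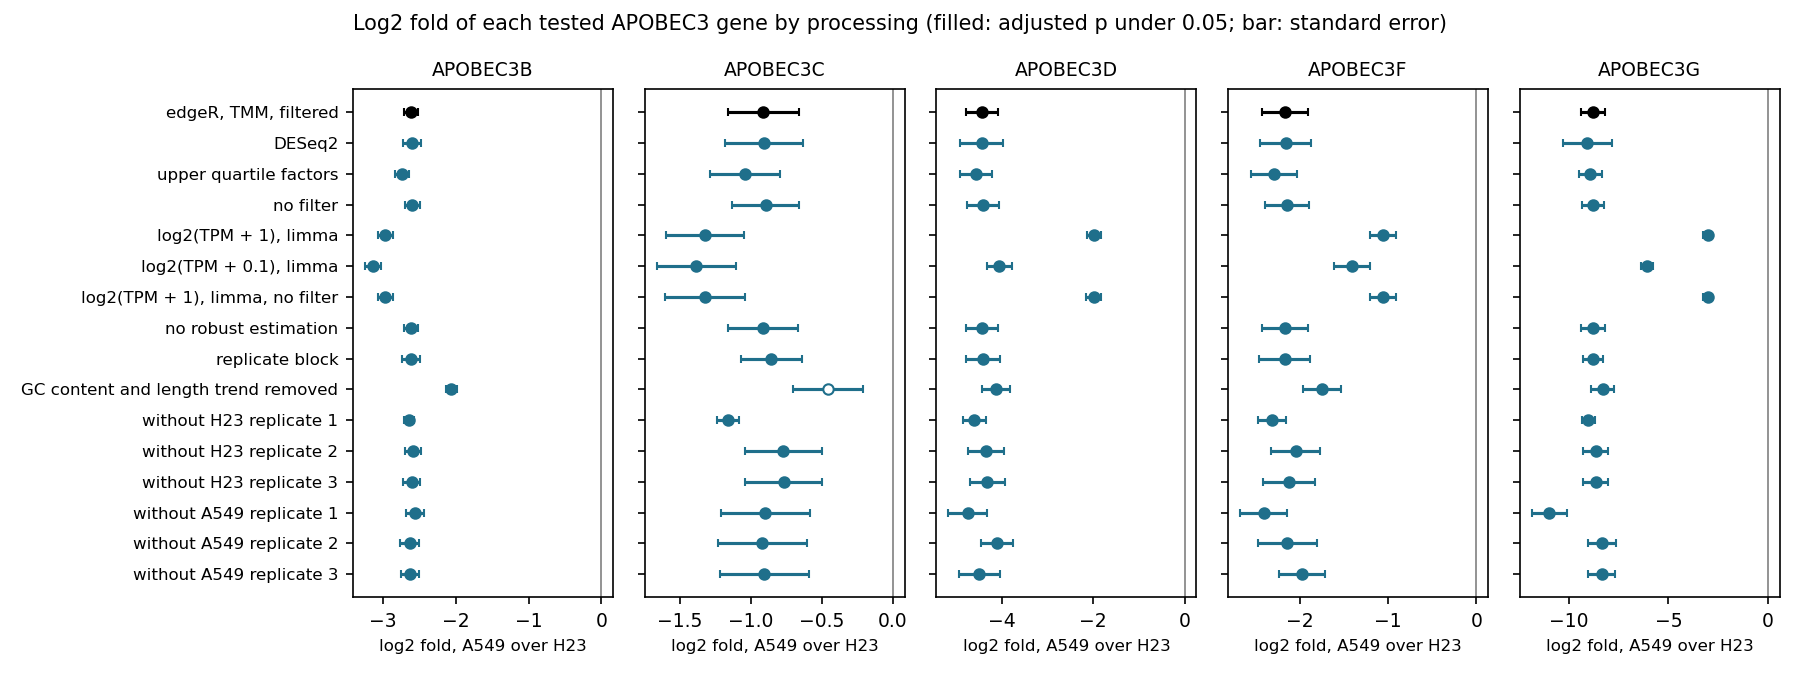
Log2 fold of A549 over H23 (horizontal axis, own scale in each panel) for the 5 tested APOBEC3 genes under the fit as reported (black) and each alternative (blue), with bars for the standard error and filled symbols for an adjusted p under 0.05. All points lie below 0, and the sole open symbol is APOBEC3C at -0.46 with the GC content and length trend removed.

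Levels were set side by side between genes on TPM, which corrects for length. In H23 the order was APOBEC3B at 55.1 ± 4.78 TPM, APOBEC3C at 32.0 ± 11.6, APOBEC3G at 7.52 ± 2.54, APOBEC3F at 4.40 ± 0.777, APOBEC3D at 3.48 ± 0.936 and APOBEC3H at 0.11 ± 0.0954 (SD, n = 3). APOBEC3G overlapped APOBEC3F over the H23 libraries, and APOBEC3F overlapped APOBEC3D, although the order of the 3 was the same within each library. In A549 the order was APOBEC3C at 11.6 ± 0.401 TPM, APOBEC3B at 6.15 ± 0.455 and APOBEC3F at 1.60 ± 0.350, followed by APOBEC3D at 0.113 ± 0.0473, APOBEC3H at 0.08 ± 0.0985 and APOBEC3G at 0.01 ± 0.0173. APOBEC3H overlapped both APOBEC3D and APOBEC3G in A549, and no other neighbours in that order did. The 7 members summed to 79.0, 115 and 113 TPM in H23 and to 19.3, 19.1 and 20.2 TPM in A549. Rescaled without genes under 200 bases, the sums were 103 ± 20.4 TPM in H23 and 23.7 ± 0.531 TPM in A549.

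The ratio of APOBEC3B to APOBEC3C within a library does not depend on how libraries are scaled. It was 2.66, 1.51 and 1.48 on TPM in H23 and 0.506, 0.538 and 0.549 in A549, so the order of the pair was reversed in every library of the other line. These ratios are given as a description, with no test. APOBEC3B made up 62.8%, 50.7% and 50.4% of the summed APOBEC3 TPM in H23 and 29.5%, 32.4% and 32.6% in A549. APOBEC3C made up 30.4 ± 5.90% in H23 and 59.3 ± 0.941% in A549. APOBEC3G took 7.18 ± 1.18% of the sum in H23 and 0.0519 ± 0.0898% in A549. On TPM the ratio of APOBEC3F to APOBEC3C was 0.147 ± 0.0395 in H23 and 0.139 ± 0.0342 in A549 and overlapped between the lines. By counts the pair differed, with edgeR log2 folds of -2.17 for APOBEC3F and -0.91 for APOBEC3C. In A549 most of the APOBEC3F TPM was its short transcript, at 1.28 ± 0.262 TPM, a model estimate described below. APOBEC3D went from 0.783 ± 0.113 of the APOBEC3F TPM in H23 to 0.0702 ± 0.0247 of it in A549. That ratio rests on the same estimate.

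**Figure D3:**
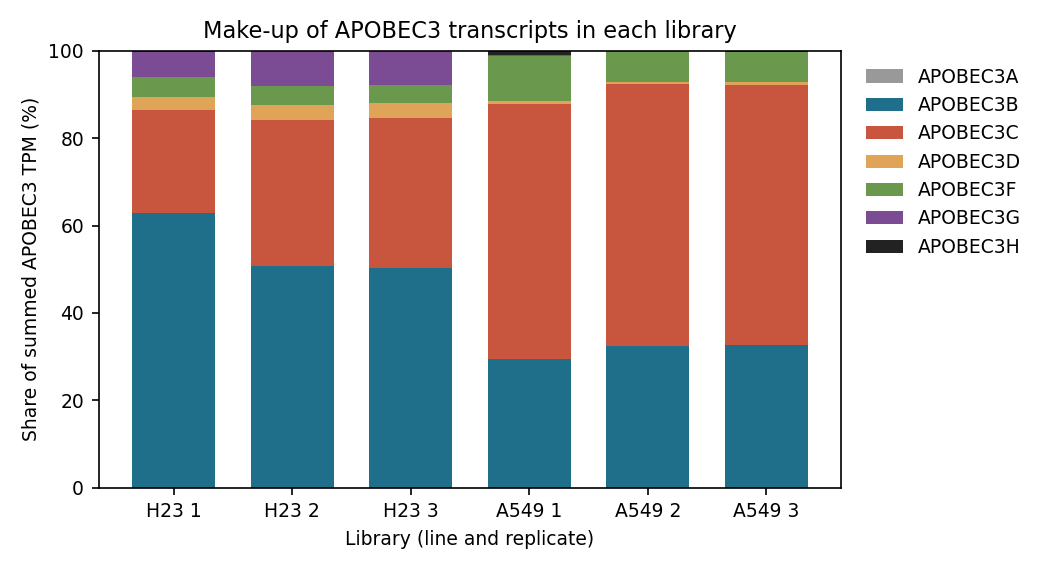
Share of the summed APOBEC3 TPM (vertical axis, percent) held by each member in the 3 H23 and 3 A549 libraries, as stacked bars. APOBEC3B fills 50.4% to 62.8% of the H23 bars and APOBEC3C fills 58.2% to 60.1% of the A549 bars, where APOBEC3G is all but missing.

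APOBEC3F was listed with a long transcript, NM_145298 of 4690 bases, and a short one, NM_001006666 of 805 bases, and its leading transcript differed between the lines. The long transcript had 259, 315 and 410 expected counts in H23 and 44.0, 35.1 and 19.2 in A549. The short transcript had 22.01, 16.19 and 17.96 in H23 and 22.63, 15.79 and 15.81 in A549. On TPM the long form went from 3.13 ± 0.805 in H23 to 0.317 ± 0.115 in A549, while the short form stood at 1.26 ± 0.159 in H23 and 1.28 ± 0.262 in A549 and overlapped between the lines. The short form thus held 37.8%, 26.7% and 23.8% of the gene's transcripts in H23 and 78.7%, 76.7% and 85.6% in A549, with no overlap. Of 7109 genes with several transcripts and a TPM of at least 1 in every library, 6.01% had a leading transcript that was the same in all libraries of a line and differed between lines. These splits are model estimates, and no test was made of them.

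The short form's coding sequence was 306 bases long in GENCODE. Of its windows of 50 bases, 63.8% occurred in no other member's transcripts and 48.6% also occurred in the long form's coding sequence. All of the windows it shared with another member were shared with APOBEC3G, through the common start printed above, and APOBEC3G had 1 count in A549. The part of shared reads in the short form's level was not tested.

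**Figure D4:**
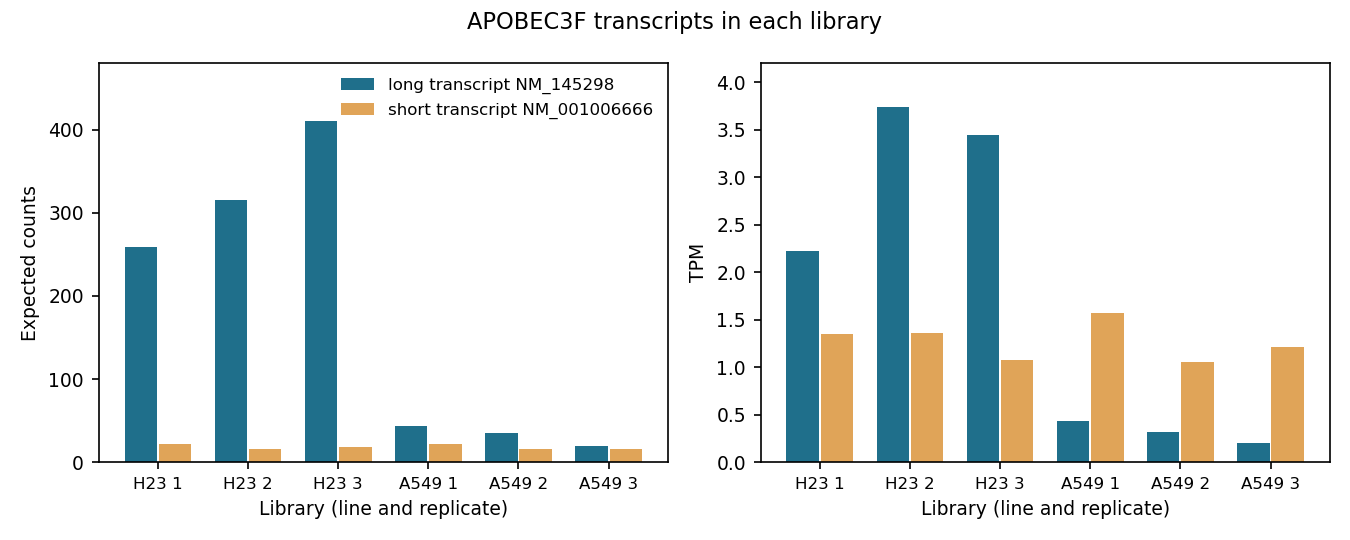
Expected counts (left) and TPM (right) of the long and short APOBEC3F transcripts in each of the 3 H23 and 3 A549 libraries, as bars from 0. The long form is the taller bar on TPM in every H23 library, at 2.22 to 3.74, and the lower one in every A549 library, at 0.20 to 0.43, while the short form stays between 1.06 and 1.57.

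The genes on either side of the cluster went both ways, with most calls toward H23. In the order of the RefSeq gene table, 12 tested neighbours came before APOBEC3A and 6 after APOBEC3H. Of the 12, 7 were called higher in H23 and 3 in A549, with folds from -1.45 to 0.69. Of the 6, 4 were called higher in H23 and 1 in A549, with folds from -2.93 to 2.36. The share of calls over both sides was 83.3%, beside 77.2% of all tested genes. By direction, 11 of the 18 were called higher in H23 and 4 in A549, beside 39.6% and 37.6% of all tested genes. The Polycomb genes that flank the cluster went opposite ways. CBX6, next to APOBEC3A, had 76.5 ± 14.1 CPM in H23 against 123 ± 2.87 in A549 (log2 fold 0.69 ± 0.14, edgeR adjusted p = 0.00342), a call lost on log2(TPM + 1), where the limma adjusted p was 0.456. CBX7, next to APOBEC3H, had 19.3 ± 0.344 CPM in H23 against 2.53 ± 0.111 in A549 (log2 fold -2.93 ± 0.10, edgeR adjusted p = 9.59e-07). PDGFB, a growth factor gene beyond it, was higher in A549 (log2 fold 2.36 ± 0.20). The RNA helicase gene DDX17 and the ribosomal protein gene RPL3 had log2 folds of 0.35 ± 0.07 and -0.18 ± 0.07, and the former turned to -0.20 on log2(TPM + 1) and the latter to 0.52 with the GC content and length trend removed, where it was called higher in A549 (edgeR adjusted p = 0.000147). The RPL3 call was lost with the replicate block (edgeR adjusted p = 0.119), without the filter (0.11) and in 5 of the 6 fits that left out a library. The median log2 fold over the 18 was -0.46, beside -0.03 for all tested genes.

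**Figure D5:**
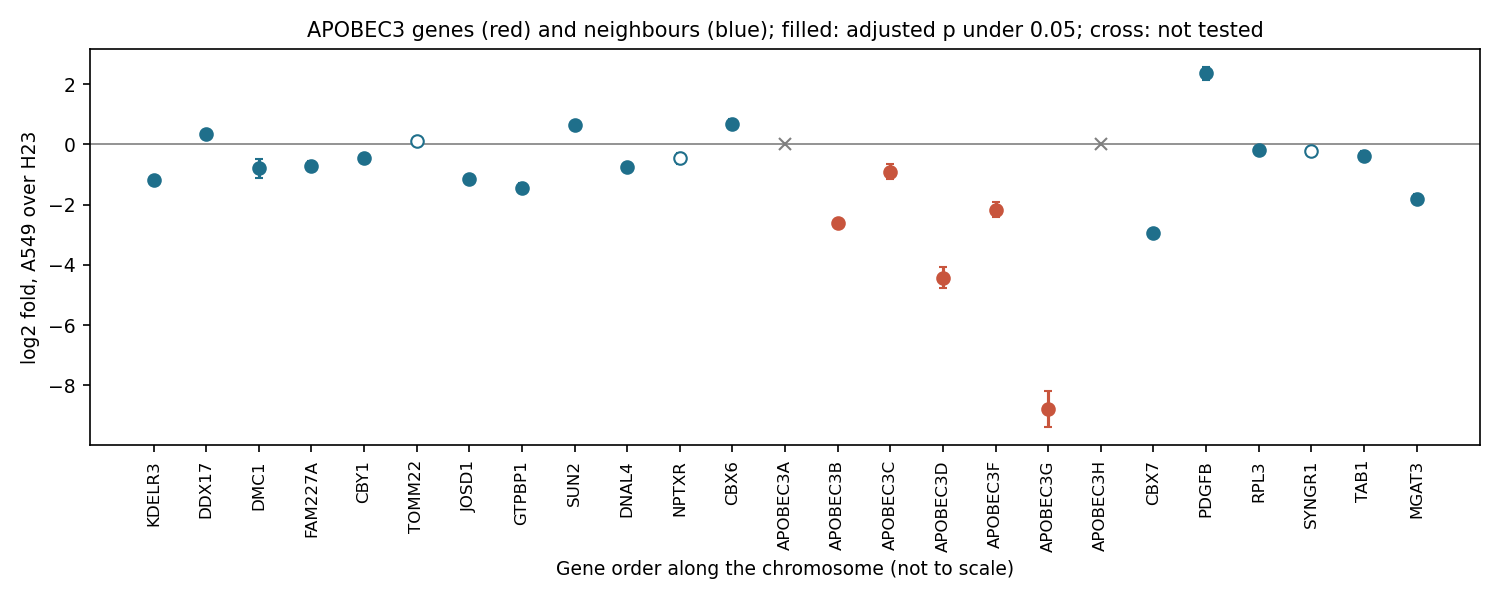
Log2 fold of A549 over H23 (vertical axis) with its standard error for the APOBEC3 genes (red) and 18 neighbours (blue) in their order along chromosome 22, not to scale, with open circles for genes that did not pass and crosses for APOBEC3A and APOBEC3H, which were not tested. The 5 red points run from -0.91 to -8.80, and the neighbours lie between -2.93 and 2.36.

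Other deaminase genes and the cofactor genes listed with them went both ways. Of 13 listed genes of the APOBEC, ADAR and cytidine-metabolism groups, 8 were tested, and calls went to A549 for 4 and to H23 for 3, a share of 87.5% beside 77.2% of all tested genes. ADARB2 and CDA passed the filter through 1 line, with summed counts of 128 and 8 in H23 against 0 and 339 in A549. The RNA-editing relative APOBEC1 had no count, and, like APOBEC2 and APOBEC4, it was left untested by the filter. ADAR and ADARB1, which edit adenosine to inosine in double-stranded RNA, were higher in H23 (log2 folds -1.38 ± 0.16 and -1.78 ± 0.11). ADARB2, an inactive relative, had 1.19 ± 0.264 CPM in H23 and no count in A549. Its H23 level was 28.6 times a floor of 3 counts over the A549 libraries, with the counting error of the H23 counts left out. CDA, which deaminates free cytidine, and RBM47, an RNA-binding cofactor of APOBEC1, were higher in A549 (log2 folds 5.93 ± 0.38 and 4.14 ± 0.10).

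Genes that handle the product of deamination were split. Of 21 genes for uracil excision and for abasic or mismatched sites, 3 were called higher in A549, 8 in H23 and 10 in neither, a share of calls of 52.4% beside 77.2% of all tested genes. The number called was 18 after the correction for GC content and length and 19 on log2(TPM + 1). The uracil glycosylase UNG, chosen after its values were seen because it acts first on uracil in DNA, had 145 ± 8.63 CPM in H23 against 135 ± 2.49 in A549 (log2 fold -0.10 ± 0.08, edgeR adjusted p = 0.258). Its log2 fold was -0.65 on log2(TPM + 1) with limma and 0.35 with the GC content and length trend removed, both past the threshold, so its direction depended on the scaling. HMCES, which shields abasic sites in single-stranded DNA, had 116 ± 8.98 CPM in H23 against 37.9 ± 1.87 in A549 (log2 fold -1.62 ± 0.09). The translesion polymerase subunits MAD2L2 and REV3L went opposite ways, with log2 folds of -2.52 ± 0.11 and 1.97 ± 0.37. With the GC content and length trend removed these became -1.92 and 0.57 for the pair and -0.93 for HMCES, all still called. REV3L stood at 2.57 without H23 replicate 1.

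Among 25 regulators described for APOBEC3 transcription, mostly for APOBEC3B, 14 were called higher in H23, 6 in A549 and 5 in neither. The share of calls was 80%, near the 77.2% of all tested genes, but the calls leaned toward H23. Of all tested genes, 39.6% were called higher in H23 and 37.6% in A549. MYBL2 and FOXM1, transcription factors of the cell cycle, had 374 ± 46.2 and 486 ± 89.4 CPM in H23 against 75.7 ± 5.17 and 101 ± 4.39 in A549 (log2 folds -2.30 ± 0.12 and -2.26 ± 0.15). NFKB2, the subunit of the non-canonical NF-kappaB pathway, and TEAD4 were also higher in H23 (log2 folds -1.93 ± 0.14 and -2.17 ± 0.09). LIN9 and LIN54, subunits of the complex that recruits MYBL2 or repressors to cell cycle genes, were higher in A549, LIN9 by a log2 fold of 1.51 ± 0.19. The log2 fold of LIN54 was 1.501. LIN52 and RBBP4 of the same complex were higher in H23 (log2 folds -0.86 ± 0.15 and -1.18 ± 0.07), and LIN37 was not called (log2 fold 0.16 ± 0.10, -0.35 on log2(TPM + 1) and 0.77 with the trend removed, both past the threshold). After the correction for GC content and length, LIN54 stood at 0.52 and TEAD4 at -1.42, both still called. The protein kinase C family, which can induce APOBEC3B, was split, with PRKCA and PRKCE higher in A549 (log2 folds 1.09 ± 0.13 and 1.09 ± 0.13) and PRKCD higher in H23 (log2 fold -1.81 ± 0.10). PRKCE, PRKCD, LIN52, RBBP4 and LIN37 were named after their values were seen.

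Several APOBEC3 genes respond to interferon, and the receptors and signalling genes were split. Of 16 genes, 8 were called higher in H23 and 4 in A549, beside 39.6% and 37.6% of all tested genes. The remaining 4 did not pass, and the share of calls was 75%, near the 77.2% of all tested genes. The receptor chains IFNAR2 and IFNGR2 were higher in H23 (log2 folds -1.85 ± 0.11 and -2.02 ± 0.08), as was the transcription factor IRF1 at -1.06 ± 0.14. The kinases JAK1 and JAK2 were higher in A549 (log2 folds 1.41 ± 0.07 and 2.91 ± 0.32). With the GC content and length trend removed, JAK2 stood at 2.24, and on log2(TPM + 1) the limma folds were 1.29 for JAK2 and -2.60 for IFNAR2, all still called.

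Other factors that restrict retroviruses or retroelements went both ways, with 7 of 21 tested genes called higher in H23 and 10 in A549, a share of 81.0% near the 77.2% of all tested genes. IFITM3, a membrane protein that blocks virus entry, had 145 ± 6.17 CPM in H23 against 3.23 ± 0.559 in A549 (log2 fold -5.48 ± 0.15, edgeR adjusted p = 3.74e-07). MOV10, an RNA helicase found with APOBEC3G in RNA granules, was higher in H23 (log2 fold -1.18 ± 0.16). TREX1, a DNA exonuclease, was higher in A549 (log2 fold 3.34 ± 0.33, and 3.93 with the GC content and length trend removed). Its summed counts were 67.85 in H23 and 466.59 in A549. TRIM22 was called higher in A549 from summed counts of 3 in H23 and 70 in A549, and its fitted log2 fold of 4.93 became 7.89 without H23 replicate 2. TREX1 and TRIM22 entered the test through their A549 libraries, so their calls are a description. Of 10 genes of the ubiquitin ligase that Vif recruits, 5 were called higher in H23 and 3 in A549 (80%, also near that share), and 5 in all were called when any A549 library was left out. Its scaffold CUL5 had 16.5 ± 11.5 CPM in H23 against 56.9 ± 4.03 in A549 (log2 fold 1.78 ± 0.44, 0.86 with the trend removed and 2.52 without H23 replicate 1), and its adaptor ELOB had a log2 fold of -0.50 ± 0.11.

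The genes whose TPM over the 6 libraries lay nearest to APOBEC3B, by Euclidean distance of log2(TPM + 1), were GTF2H4, USP14 and GCHFR, at distances of 0.353, 0.414 and 0.445. GTF2H4, a subunit of a general transcription factor, was at 54.6 ± 12.5 TPM in H23 and 6.46 ± 0.467 TPM in A549. Those nearest to APOBEC3C were CHST10, SYDE1 and ATP13A1, at 0.226, 0.287 and 0.304. CHST10, a sulfotransferase gene, was at 31.0 ± 11.4 TPM in H23 and 12.7 ± 0.702 TPM in A549.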

How the data were processed

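A gene table and a transcript table were deposited for each library. The submitters' processing notes name STAR 2.6.0c, RSEM 1.3.0 and hg19. Options, annotation release, read length and strand setting were not given in the sources used here. The deposited expected counts are estimated reads per gene with no scaling for depth, per the file headers. The TPM values the authors deposited are scaled for length and depth, with the same total in each library. The deposited percent values give a transcript's share of its gene. The deposited FPKM values were not used.

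After rounding, the expected counts went into edgeR 4.0.16 (R 4.3.3). The default filterByExpr filter left 15426 of 27968 genes, and TMM factors ran from 0.985 to 1.02. The lines were compared with the quasi-likelihood F test (robust), p-values were adjusted by Benjamini-Hochberg, and a fold's standard error is its size divided by the root of F, an approximation. The test was run on simulated counts drawn with the spread that the fit itself had estimated. These held no departing library like H23 replicate 1, so the check does not cover such a departure. Counting intervals are exact binomial (Clopper-Pearson). Alternatives were DESeq2 1.42.0, limma 3.58.1 on log2(TPM + 1) or log2(TPM + 0.1), upper quartile factors, no filter, no robust estimation, a replicate block, each library left out, and the removal of each library's GC and length trend. That trend was fitted per library on the 96.2% of tested genes with a GC value.

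Coding sequences were matched by RefSeq accession and aligned with Biopython 1.88. No genome positions are given, since the tables list none and the supplied reference is of another build. The members, lists and tests were chosen with earlier results of these data known. From each list the rule allowed up to 4 genes per direction with the largest fold among called genes whose lines do not overlap, the 2 with the highest mean TPM and all neighbours of the cluster, as well as the 3 genes most alike to the 2 most abundant members. Undetected or marker genes were named after their values were seen.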

Additional observations from a re-analysis of the deposited data

How the results depend on the processing

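APOBEC3B, APOBEC3D, APOBEC3F and APOBEC3G kept their direction and call in all 15 alternatives, and APOBEC3C in 14 of 15. APOBEC3D and APOBEC3G passed the filter only through their H23 libraries and had to differ, so their calls are a description. APOBEC3C lost its call with the GC content and length trend removed, at -0.46 with an edgeR adjusted p of 0.12, and the cause was not tested. Leaving out each library in turn gave log2 folds of -2.64 to -2.57 for APOBEC3B, -1.16 to -0.77 for APOBEC3C, -4.75 to -4.10 for APOBEC3D, -2.41 to -1.97 for APOBEC3F and -10.99 to -8.31 for APOBEC3G. The extreme for APOBEC3G came without A549 replicate 1, which held the line's only count. The number of called genes ran from 10813 without A549 replicate 2 to 13666 without H23 replicate 1. Same-numbered libraries did not deviate together, with correlations of 0.025, -0.0389 and 0.0544, and not every library correlated best with its own number. With the replicate block 11691 genes were called, all 5 tested APOBEC3 genes among them. Of the other genes named, DDX17 turned to -0.20 in each of the 3 fits on TPM, without a call, and RPL3 to 0.52 with the trend removed, with a call. UNG turned to 0.35 with the trend removed, and LIN37 to -0.35, -0.37 and -0.35 in the fits on TPM. The calls of CBX6, SUN2, DCTD and KRT8 were lost on log2(TPM + 1). The uracil excision list went from 11 calls to 18 with the trend removed and to 19 on log2(TPM + 1). The Vif ligase list went from 8 calls to 5 without A549 replicate 1, 2 or 3. The leukocyte list went from 1 call to between 1 and 4. Depth limits APOBEC3A, APOBEC3H and the A549 levels of APOBEC3D and APOBEC3G.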
